A study of Mus musculus with 2 samples.

Results

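The autophagy and mitophagy machinery was followed as a fixed set of 38 genes among the 55536 genes quantified in whole gastrocnemius, a mixed but mostly fast-twitch calf muscle of the mouse. The set was named by gene symbol, by a rule that uses no measured value, and all 38 symbols were found. It covers the initiation kinase complex (5 genes), the class III phosphatidylinositol 3-kinase complex and its regulators (6), membrane and lipid-transfer proteins with the phosphoinositide-binding WIPI proteins (5), conjugation enzymes and Atg4 proteases (10), the Atg8 family (5), cargo receptors (3), mitophagy genes (3) and the transcription factor Tfeb. Total RNA was sequenced from 2 male B6CASTF1/J mice of 8 to 10 months, 1 library per animal, made from 300 ng of RNA with synthetic ERCC spike-in RNAs. B6CASTF1/J mice are first-generation hybrids of C57BL/6J and CAST/EiJ, so each autosomal gene carries an allele from both strains, and the reads were quantified against the C57BL/6J reference (mm10). There was 1 group and no treatment, so the only comparison between samples is between the animals, called replicate 1 and replicate 2. The labels number the animals 2 and 4 and give both the same donor identifier. Every comparison of the animals below is between 2 libraries, has no replicate check, and measures counting error only.

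Macroautophagy encloses cytoplasm, protein aggregates or organelles in a double membrane, the autophagosome, which then fuses with the lysosome. A kinase complex around ULK1 or ULK2 starts the process, a lipid kinase complex around Beclin 1 and VPS34 marks the growing membrane, and ubiquitin-like conjugation systems attach Atg8 proteins (LC3 and GABARAP) to its lipids. Cargo receptors bind Atg8 proteins and ubiquitin, and mitophagy removes mitochondria either through the PINK1 kinase or through receptors of the outer membrane such as BNIP3. In skeletal muscle the pathway clears mitochondria and aggregates from long-lived fibres and is known to be induced by fasting, denervation and exercise.

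The sequences below carry the findings on transcript forms and on promoter motifs. The first is an 87-base cassette exon of Ambra1, shown because the transcripts that contain it and a transcript that skips it took different shares in the animals. It lies on the plus strand of mm10 at chr2:91805024-91805110, and the exon is in capitals.
Ambra1: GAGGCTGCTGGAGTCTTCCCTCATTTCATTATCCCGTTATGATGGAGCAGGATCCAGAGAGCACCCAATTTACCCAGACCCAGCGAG

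The second is a 77-base intron of Atg4d that is kept in Atg4d-203, the transcript to which most reads of this gene were assigned. It is shown with 15 exon bases on either side, on the plus strand at chr9:21268513-21268619, with the intron in capitals.
Atg4d: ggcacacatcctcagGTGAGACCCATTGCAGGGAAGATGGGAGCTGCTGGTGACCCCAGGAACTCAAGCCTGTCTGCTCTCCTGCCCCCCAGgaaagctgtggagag

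The third set is the promoter stretches that hold GTCACGTG, read on both strands, which is the core of the motif known to be bound by TFEB. RefSeq promoter windows of 300 bases (GRCm38.p6) were at hand for 31 of the 38 genes, and 3 of those 31 held the motif, against 2.55% of all 27025 genes with a window. The stretches lie at chr14:47568403-47568460 on the minus strand for Atg14, chr16:45158708-45158788 on the plus strand for Atg3 and chr6:114670937-114670994 on the plus strand for Atg7, and the motif is in capitals.
Atg14: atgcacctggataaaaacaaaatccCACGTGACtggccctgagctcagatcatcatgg
Atg3: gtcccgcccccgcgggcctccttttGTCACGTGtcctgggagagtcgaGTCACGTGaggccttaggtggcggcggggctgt
Atg7: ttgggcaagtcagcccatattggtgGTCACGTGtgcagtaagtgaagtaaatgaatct

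Atg3 held 2 copies. The windows of Atg7 and Atg14 belong to RefSeq starts inside the GENCODE gene. The shorter E-box CACGTG, which lies within GTCACGTG, was also found in Atg5 and Bnip3, that is in 5 of 31 genes (16.1%), against 8.09% of all genes with a window. The FoxO-type motif TGTTTAC, read on both strands, was in none of the 31 genes, against 4.05% of all genes. A match is a description of the letters only, and no binding was measured.

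All 38 genes reached 1 TPM (transcripts scaled to a fixed total per library and corrected for length) or more in both animals, and 31 reached 5 TPM, as the plot of levels by role shows. The median of the 38 was 20.2 TPM in replicate 1 and 18.01 TPM in replicate 2. Among the 9815 of 22015 nuclear protein-coding genes at 1 TPM or more in both animals, the median was 8.26 TPM in replicate 1 and 8.01 TPM in replicate 2. Together the 38 genes held 1638 TPM in replicate 1 and 1610.03 TPM in replicate 2. Pink1 and Sqstm1 alone made up 36.2% of that sum in replicate 1 and 37.8% in replicate 2. The files hold 36792611 counts over genes in replicate 1 and 37752249 in replicate 2, and the genes of the set had between 166 and 21297 counts per library, so none was near the limit of detection.

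**Figure D1:**
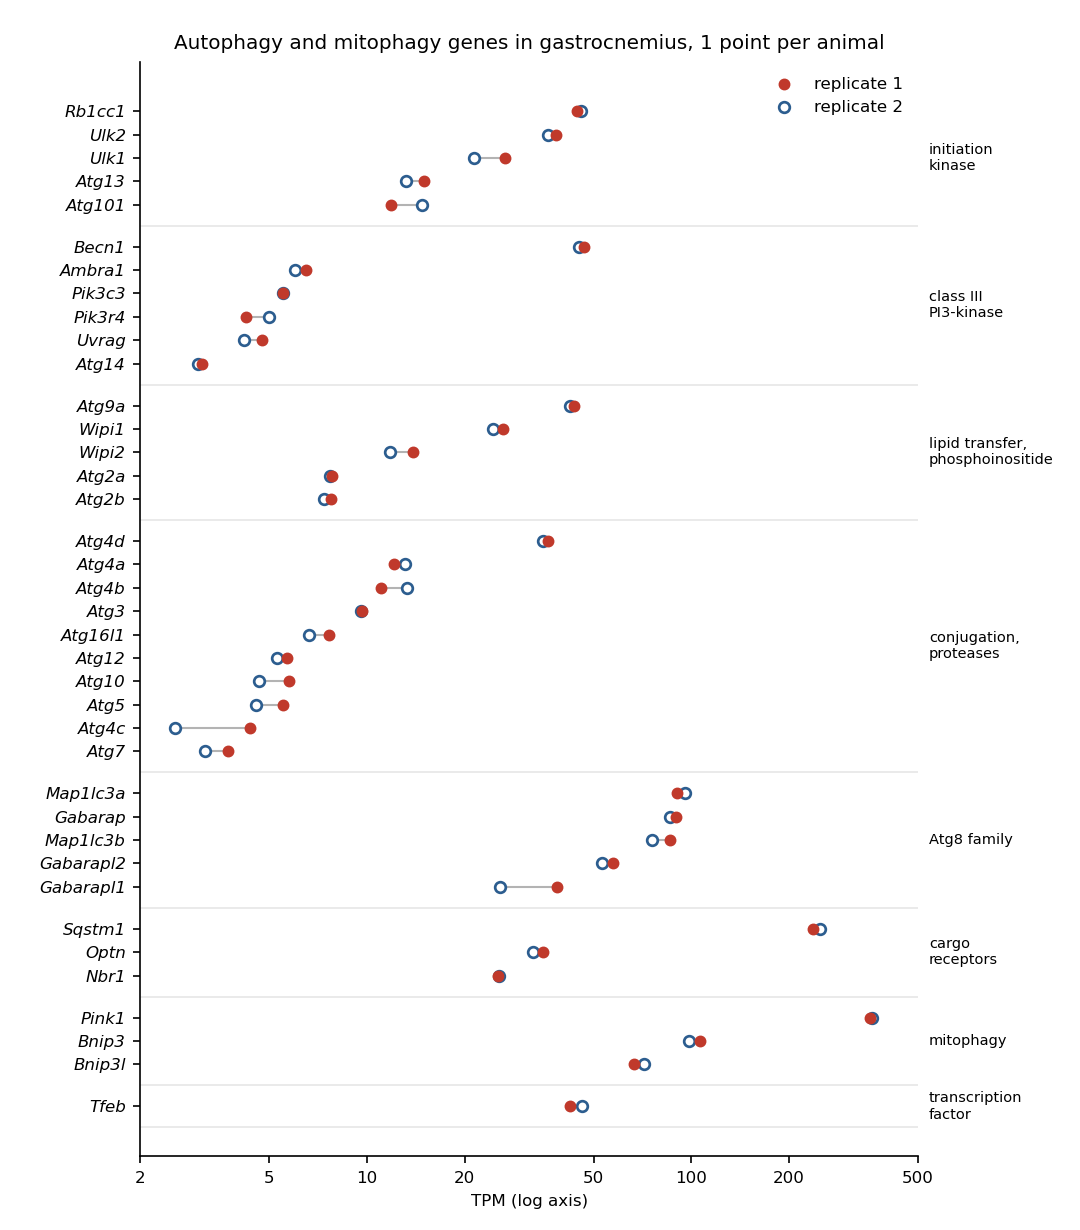
Level of each of the 38 genes in TPM on a log axis, 1 point per animal (filled red, replicate 1; open blue, replicate 2; a grey line joins them), grouped by role and ordered by mean within a role. Levels span 2.56 to 360.3 TPM, with Pink1 and Sqstm1 above all others in both animals and the Atg8 genes all above 25 TPM.

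Among the mitophagy genes, Pink1 stood at the top of the set. Pink1, the kinase that accumulates on damaged mitochondria and phosphorylates ubiquitin, had 356 TPM in replicate 1 and 360.3 TPM in replicate 2, above 99.4% of nuclear protein-coding genes. Its lead over Sqstm1 narrowed in the second set of deposited transcript estimates, with means of 272 TPM for Pink1 and 244 TPM for Sqstm1. The outer-membrane receptor Bnip3 had 106 TPM in replicate 1 and 98.4 TPM in replicate 2. Its paralogue Bnip3l (NIX) had 66.7 TPM in replicate 1 and 71.3 TPM in replicate 2. Bnip3 was the higher of the pair in both animals and held 59.7 ± 2.47% of their summed TPM (SD, n = 2).

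The cargo receptors were led by Sqstm1 (p62), which binds ubiquitin and Atg8 proteins and is itself degraded by autophagy. It had 237 TPM in replicate 1 and 249 TPM in replicate 2. Optn, a ubiquitin-binding receptor active in mitophagy, had 34.9 TPM in replicate 1 and 32.5 TPM in replicate 2. Nbr1, a relative of p62 in domain layout, had 25.4 TPM in replicate 1 and 25.5 TPM in replicate 2, the smallest of the 3. Sqstm1 was thus above its neighbours by far more than the difference between the animals, whereas the gap between Nbr1 and Wipi1, the next gene down at 25.4 ± 1.36 TPM (SD, n = 2), was within the spread.

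The Atg8 family was high as a whole, with 361 TPM summed in replicate 1 and 336 TPM in replicate 2. Map1lc3a had 90.3 TPM in replicate 1 and 95.9 TPM in replicate 2. Gabarap had 89.5 TPM in replicate 1 and 85.9 TPM in replicate 2, and Map1lc3b, the LC3 form most used as an autophagosome marker, had 85.8 TPM in replicate 1 and 75.4 TPM in replicate 2. These 3 lay close together, and Map1lc3a and Gabarap differed by little more than the SDs over the animals (3.92 and 2.50 TPM). The closeness depended on the quantification. In the second set of deposited transcript estimates, Gabarap had a mean of 69.6 TPM, below Map1lc3a at 96.9 TPM and Map1lc3b at 95.6 TPM. Gabarapl2 had 57.2 TPM in replicate 1 and 53.1 TPM in replicate 2. Gabarapl1 was the lowest of the family, with 38.4 TPM in replicate 1 and 25.8 TPM in replicate 2.

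The initiation complex lay below the top of the Atg8 family. Rb1cc1, which encodes the scaffold FIP200, had 44.3 TPM in replicate 1 and 45.7 TPM in replicate 2. The kinase gene Ulk2 had 38.3 TPM in replicate 1 and 36.2 TPM in replicate 2, and the kinase gene Ulk1 had 26.7 TPM in replicate 1 and 21.3 TPM in replicate 2. Ulk2 therefore held 60.9 ± 2.86% of the pair (SD, n = 2), the higher share in both animals. The adaptor genes Atg13 (14.1 ± 1.22 TPM) and Atg101 (13.3 ± 2.03 TPM; SD, n = 2 each) stood lowest and did not differ from each other beyond their spread.

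The class III PI3-kinase complex was uneven. Becn1, the scaffold Beclin 1, had 46.7 TPM in replicate 1 and 45.0 TPM in replicate 2. The other 5 genes lay far below it: Ambra1, which regulates Beclin 1, at 6.25 ± 0.354 TPM, the lipid kinase gene Pik3c3 (VPS34) at 5.52 ± 0.00707 TPM, its regulatory subunit Pik3r4 (VPS15) at 4.61 ± 0.516 TPM, and the alternative Beclin 1 partners Uvrag at 4.46 ± 0.403 TPM and Atg14 at 3.06 ± 0.0495 TPM (SD, n = 2 each). The product of Atg14 directs the complex to autophagosome formation. Atg14 was the lowest gene of the whole set by mean TPM. It was above 65.1% of all 22015 nuclear protein-coding genes, of which 9815 reached 1 TPM in both animals. Atg14 lay below the median of those 9815 genes, which was 8.26 TPM in replicate 1 and 8.01 TPM in replicate 2. As described below, most of the Becn1 level came from transcripts that are not annotated as coding.

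Among the membrane proteins, the lipid scramblase gene Atg9a had 43.4 TPM in replicate 1 and 42.3 TPM in replicate 2. Of the WIPI genes, whose products bind phosphatidylinositol 3-phosphate, Wipi1 had 26.3 TPM in replicate 1 and 24.4 TPM in replicate 2. Wipi2 had 13.8 TPM in replicate 1 and 11.7 TPM in replicate 2, so Wipi1 held 66.5 ± 1.36% of the pair (SD, n = 2). The lipid transfer genes Atg2a (7.75 ± 0.0849 TPM) and Atg2b (7.54 ± 0.283 TPM; SD, n = 2 each) were nearly level, with Atg2a at 50.7 ± 0.664% of the pair.

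Most conjugation enzymes were low. Atg3, the E2-like enzyme for Atg8 proteins, had 9.66 TPM in replicate 1 and 9.6 TPM in replicate 2, and Atg7, the E1-like enzyme of both conjugation systems, had 3.73 TPM in replicate 1 and 3.17 TPM in replicate 2. Atg16l1, Atg12, Atg10 and Atg5, which form or build the Atg12–Atg5–Atg16L1 complex, had means between 5.03 and 7.15 TPM. Of the cysteine proteases that process Atg8 proteins, Atg4d had 36.1 TPM in replicate 1 and 34.8 TPM in replicate 2 and held 55.7 ± 1.47% of the Atg4 total (SD, n = 2). Atg4a (12.6 ± 0.70 TPM) and Atg4b (12.2 ± 1.55 TPM; SD, n = 2 each) did not differ beyond their spread. Atg4c held 5.44 ± 2.01%, with 4.37 TPM in replicate 1 and 2.56 TPM in replicate 2. Tfeb, the master transcription factor of lysosomal and autophagy genes, had 42.2 TPM in replicate 1 and 46.0 TPM in replicate 2.

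**Figure D2:**
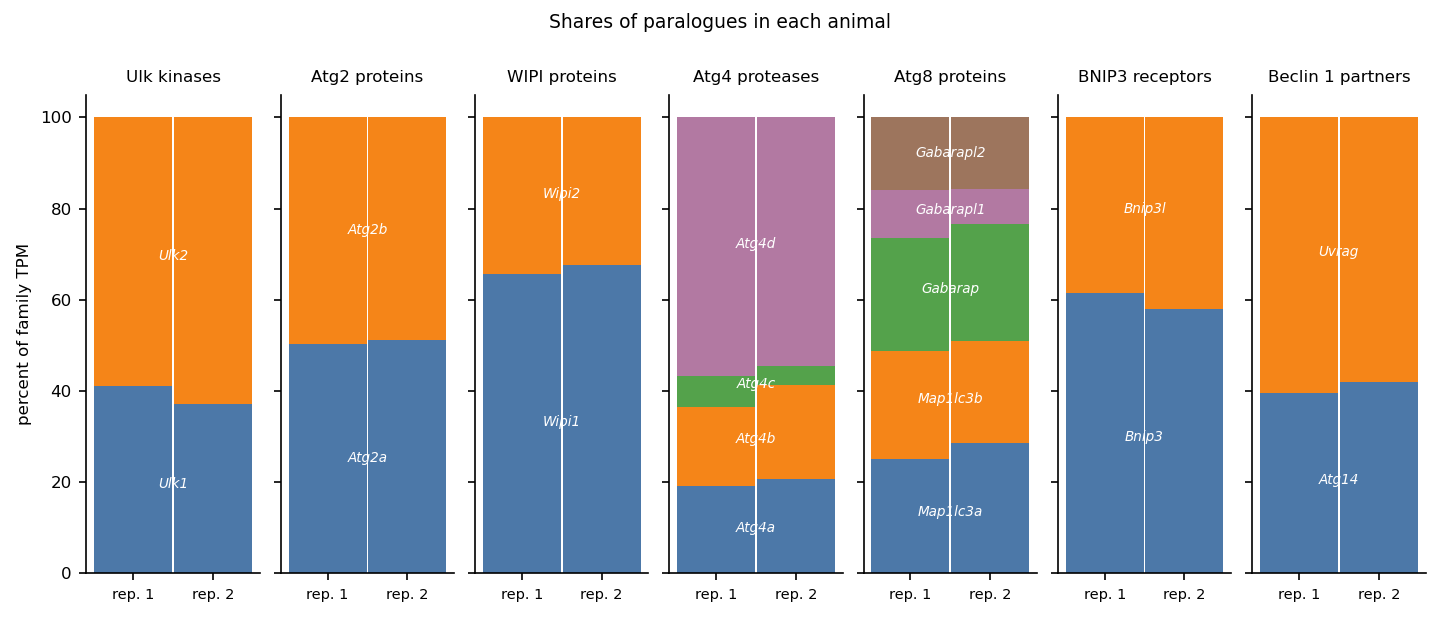
Percent of each paralogue family's summed TPM held by each gene, 1 bar per animal (replicate 1 left, replicate 2 right), from 0 to 100. The order of the genes within the Ulk, WIPI and BNIP3 pairs was the same in both animals, Atg4d held the main part of its family, and Map1lc3a and Map1lc3b together held 48.8% of Atg8 TPM in replicate 1 and 51.0% in replicate 2.

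The plot of paralogue shares shows how closely these proportions were kept. The LC3 genes Map1lc3a and Map1lc3b held 49.9 ± 1.56% of Atg8 TPM (SD, n = 2), and the GABARAP genes held the rest. The second set of deposited transcript estimates gave the LC3 genes 56.2%, so the even split moved with the quantification. Uvrag held 59.3 ± 1.80% of its summed level with Atg14, and 66.9% in the second quantification. These shares sum coding and noncoding forms. In the first quantification the coding Uvrag-201 had 1.51 TPM in replicate 1 and 1.59 TPM in replicate 2. The coding Atg14-201 was higher, with 2.51 TPM in replicate 1 and 2.75 TPM in replicate 2.

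Between the animals, 8 of the 38 genes (21.1%) differed beyond counting error, 4 higher in replicate 1 and 4 higher in replicate 2, by an exact two-sided binomial test with Benjamini-Hochberg adjustment over every gene that averaged 10 counts or more. Of all 14101 genes tested, 21.6% were called, 10.8% with more in replicate 1 and 10.7% with more in replicate 2. The shares in the set and over all genes were close, but they are not like for like. The background reaches down to a mean of 10 counts, whereas all 38 genes averaged 100 counts or more. By scaled counts, none of the 38 genes was 1.5-fold apart, against 3.39% of the 9516 genes that averaged 100 counts or more. The median size of the log2 count ratio was 0.08 in the set and 0.12 over those 9516 genes. The other 30 genes were not called. With libraries scaled to the ERCC spike-ins, 25 of the 38 were called, against 35.6% of all 14101 genes. The same difference in counts holds for this and the other shares over all 14101 genes. Of the 38, 14 had an unadjusted p below 0.05, against 31.7% of all genes tested. With an assumed biological coefficient of variation of 0.1 in edgeR's exact test, 2.06% of all genes and 0 of the 38 passed. In whole muscle, fewer cells of a type and less RNA per cell cannot be told apart.

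The difference with the lowest p was in Gabarapl1, which had 1456 counts in replicate 1 and 1265 counts in replicate 2. After scaling to effective library sizes by the trimmed mean of M-values (TMM), the log2 ratio of replicate 1 over replicate 2 was 0.35, with a 95% counting interval of 0.24 to 0.46 (adjusted p = 5.1e-09, exact binomial test). On the TPM scale the ratio was 1.49-fold, and on the scaled counts 1.28-fold. Gabarapl1 was higher in replicate 1 under every scaling tried and in the second quantification.

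Atg101 had the lowest log2 ratio of the set, with 345 counts in replicate 1 and 485 counts in replicate 2. Its log2 ratio was -0.34 with an interval of -0.54 to -0.14 (adjusted p = 0.0063, exact binomial test). Its direction held under every scaling, but scaling to the ERCC spike-ins ended the call (adjusted p = 0.13). Tfeb had 1952 counts in replicate 1 and 2442 counts in replicate 2, a log2 ratio of -0.17 (-0.26 to -0.09; adjusted p = 0.00084, exact binomial test). With the spike-in scaling its ratio was -0.02 and was not called.

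The other 5 calls were small and rested on high counts. Ulk1 was higher in replicate 1 by 0.12 on the log2 scale, with 2854 counts in replicate 1 and 2910 counts in replicate 2, though by only 0.01 and not called when libraries were scaled to total counts. Ulk2 (0.08) and Bnip3 (0.09) were also higher in replicate 1, but scaling to total counts turned both round. Sqstm1 (-0.09) and Pink1 (-0.05) were lower in replicate 1, but scaling to the spike-ins turned both round. The spike-in scaling shifted the log2 ratio of all genes by 0.15 and the total-count scaling by -0.11, more than most ratios in the set. Accordingly 22 of the 38 genes were higher in replicate 1 with TMM scaling, 6 with total counts and 34 with the spike-ins. With TMM scaling the median log2 ratio was 0.04 in the set and -0.01 over all genes tested. The plot of count ratios shows all 38 with their intervals.

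**Figure D3:**
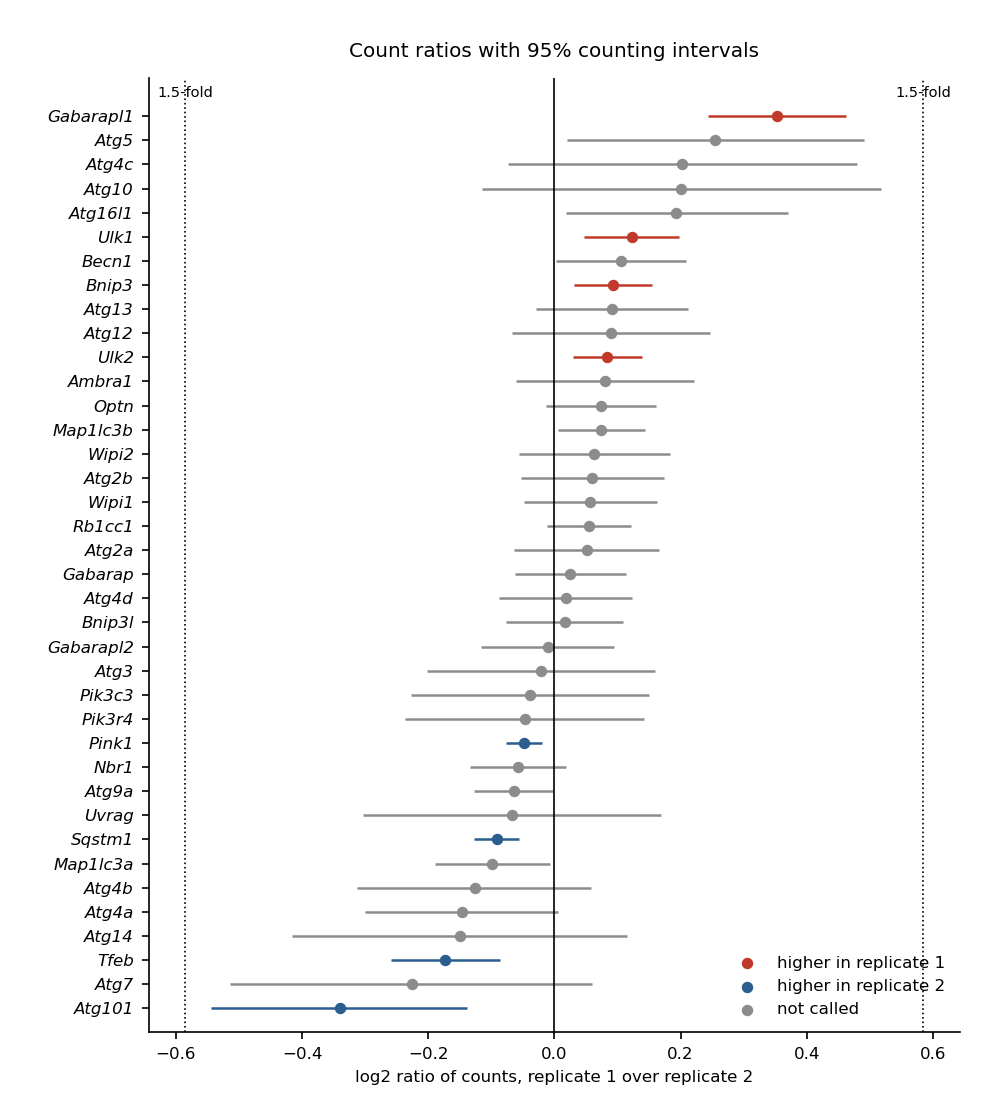
Log2 ratio of TMM-scaled counts, replicate 1 over replicate 2, for each of the 38 genes (points) with 95% counting intervals (lines), sorted by ratio; red and blue mark the called genes (4 up in replicate 1, 4 up in replicate 2), grey the 30 not called. All 38 points lie between the dotted lines at a 1.5-fold difference.

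The conjugation, PI3-kinase and membrane genes held none of the 8 called genes, against 21.6% called over all genes tested. Their counts ran from 166 for Atg10 to 4502 for Atg9a, both in replicate 2. At low counts the test can call only larger ratios, so the lack of calls is not a result about these roles. Atg5 had 313 counts in replicate 1 and 291 counts in replicate 2, with a log2 ratio of 0.25 and an interval of 0.02 to 0.49 (adjusted p = 0.11, exact binomial test). Atg4c, further apart in TPM, had 223 counts in replicate 1 and 215 counts in replicate 2 (log2 ratio 0.20, -0.07 to 0.48). A short transcript, Atg4c-202, took 35.9% of its TPM in replicate 1 and was listed at 0 in replicate 2. The 3 genes with GTCACGTG in the promoter window gave log2 ratios of -0.15 (Atg14), -0.02 (Atg3) and -0.23 (Atg7), none of them called.

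Transcript forms were compared by the percent of a gene's TPM assigned to each annotated transcript. All 38 genes have 2 or more annotated transcripts. The transcript with the highest share was the same in both animals for 33 of 38 genes, the same in both quantifications for 30, and the same in both animals and both quantifications for 22. The 5 genes whose leading transcript differed between the animals were Rb1cc1, Ambra1, Wipi2, Atg4c and Atg7.

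Ambra1 showed an exchange between coding forms. Ambra1-203, which contains the 87-base exon printed above, held 43.1% in replicate 1 and was listed at 0 in replicate 2. Ambra1-202, which also contains it, held 33.4% in replicate 1 and 50.5% in replicate 2. Ambra1-205, which skips it, held 22.1% in replicate 1 and 48.5% in replicate 2. The second quantification gave 42.1% in replicate 1 and 1.78% in replicate 2 for Ambra1-203, and 17.3% in replicate 1 and 47.7% in replicate 2 for Ambra1-205. The gene as a whole had 808 counts in replicate 1 and 848 counts in replicate 2 (log2 ratio 0.08, not called).

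Atg13 showed a similar exchange in the first quantification. Atg13-201 held 65.6% in replicate 1 and 44.8% in replicate 2, and Atg13-202 held 14.3% in replicate 1 and 39.8% in replicate 2. The second quantification moved the same way by less, with 38.7% in replicate 1 and 31.6% in replicate 2 for Atg13-201. Pik3r4-201 held 77.9% in replicate 1 and 51.4% in replicate 2, and in the second quantification 80.1% in replicate 1 and 52.2% in replicate 2. With 1 library per animal these differences have no test.

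The share of TPM on transcripts annotated as protein-coding had a median of 94.4% over the 38 genes and 93.8% over 9066 nuclear protein-coding genes at 1 TPM or more with 2 or more transcripts. It was below 50% in 6 of the 38 (15.8%), against 7.85% of those 9066 genes. The same 6 were below 50% in the second quantification, which added Atg10 and Nbr1. They were Atg4d, Becn1, Bnip3l, Map1lc3a, Uvrag and Gabarapl2, and the plot of coding shares sets them apart.

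In Atg4d the coding share was 2.24% in replicate 1 and 1.74% in replicate 2. Atg4d-203, annotated as keeping the intron printed above, held 59.8% in replicate 1 and 61.7% in replicate 2, and Atg4d-205, also annotated as a retained intron, held 36.5% in replicate 1 and 36.4% in replicate 2. In Becn1 the coding share was 9.29% in replicate 1 and 15.4% in replicate 2. The leading form, Becn1-201, is annotated as a target of nonsense-mediated decay and held 48.5% in replicate 1 and 40.2% in replicate 2. The Atg4 and Becn1 levels given above are thus sums over forms that were mostly not annotated as coding in Atg4d and Becn1.

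In Map1lc3a the coding Map1lc3a-201 held 26.1% in replicate 1 and 24.1% in replicate 2, with Map1lc3a-203, a processed transcript with no annotated reading frame, at 69.1% in replicate 1 and 50.8% in replicate 2. The division among the noncoding forms depended on the quantification: the second gave Map1lc3a-203 16.4% in replicate 1 and 72.1% in replicate 2. In Gabarapl2 the retained-intron form Gabarapl2-203 held 65.1% in replicate 1 and 58.9% in replicate 2. In Bnip3l the coding share was 21.98% in replicate 1 and 18.4% in replicate 2, and in Uvrag 31.8% in replicate 1 and 38.2% in replicate 2.

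TPM divides counts by length, so short noncoding forms weigh more in it than in counts. By assigned counts, 3 of the 38 genes were below 50%. These were Atg4d, with 8.37% of counts on coding forms in replicate 1 and 6.495% in replicate 2, Becn1, with 3.89% in replicate 1 and 11.3% in replicate 2, and Map1lc3a, with 33.1% in replicate 1 and 30.8% in replicate 2. Bnip3l had 64.7% of its counts on coding forms in replicate 1 and 59.8% in replicate 2. All these shares are the quantifiers' assignments of reads among overlapping transcripts. Read coverage of the introns themselves was not analysed here.

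**Figure D4:**
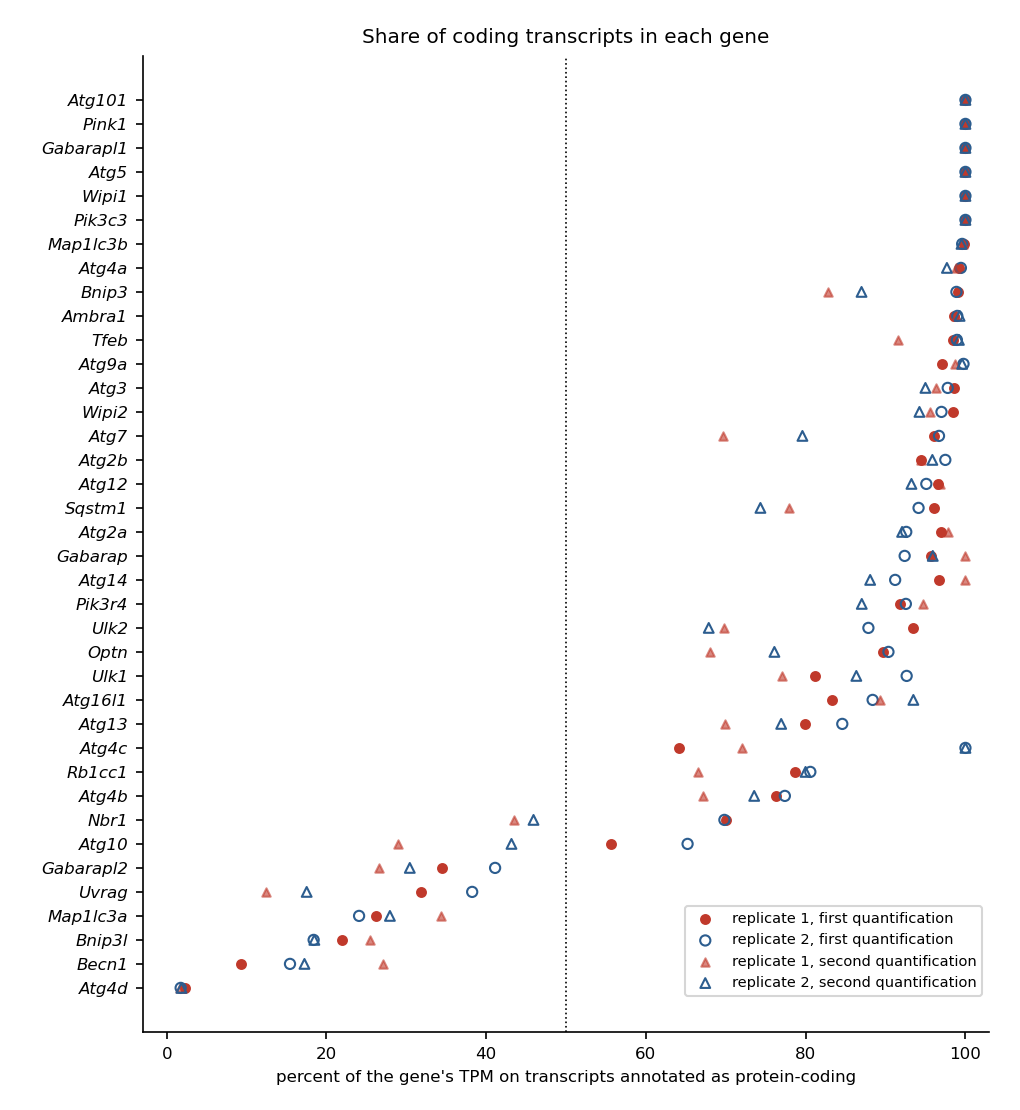
Percent of each gene's TPM on transcripts annotated as protein-coding, for both animals (red, replicate 1; open blue, replicate 2) and both deposited quantifications (circles, first; triangles, second), sorted by the mean of the first. The dotted line marks 50%. Atg4d, Becn1, Bnip3l, Map1lc3a, Uvrag and Gabarapl2 lie left of it in both animals and both quantifications.

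Reads could be shared with near-identical sequences in a few genes. For 30 of the 38, at least 95% of their 31-base words occurred in no other annotated gene. Atg4a had the lowest share, 39.3%, with most of the rest in the pseudogene Atg4a-ps, listed at 0.11 TPM in replicate 1 and 0.13 TPM in replicate 2. Bnip3 had 79.7% of its words to itself and shared 17.7% with Gm16439, listed at 25.6 TPM in replicate 1 and 21.5 TPM in replicate 2, so the level of Bnip3 is uncertain. In counts Gm16439 was smaller, with 299 in replicate 1 and 284 in replicate 2, beside 4147 in replicate 1 and 4314 in replicate 2 for Bnip3. Exons overlapped another gene in 13 of the 38, and in 3 of them the partner had a mean of 100 or more counts: Atg2b with Gskip, Atg4d with Kri1 and Map1lc3b with Zcchc14, all on the opposite strand. The library kit is directional, but the strand setting used in counting is not given in the sources used here. Kri1 had 176 counts in replicate 1 and 185 counts in replicate 2 beside 1422 counts in replicate 1 and 1559 counts in replicate 2 for Atg4d.

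The wider pathway was described from 5 lists of other genes. For comparison, 21.6% of all 14101 genes tested were called with TMM scaling, 10.8% higher in replicate 1 and 10.7% higher in replicate 2. Of 31 tested other core and upstream autophagy genes, 8 were higher in replicate 1, 3 were higher in replicate 2 and 20 were not called, with a median log2 ratio of 0.02. The highest were Sh3glb1, a Beclin-1-associated membrane-curving protein, at 164 TPM in replicate 1 and 159 TPM in replicate 2, the segregase Vcp at 109 TPM in replicate 1 and 112 TPM in replicate 2, and the muscle ubiquitin ligase Trim63 at 83.7 TPM in replicate 1 and 81.4 TPM in replicate 2. Bcl2, an inhibitor of Beclin 1, was 1.56-fold lower in replicate 1, with 113 counts in replicate 1 and 196 counts in replicate 2 (log2 ratio -0.64; adjusted p = 0.0013, exact binomial test). With the assumed coefficient of variation of 0.1 in edgeR's exact test it was not called (adjusted p = 0.32).

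Of 25 other mitophagy genes, 3 were higher in replicate 1, 4 were higher in replicate 2 and 18 were not called (median log2 ratio -0.01). They were led by the outer-membrane channels Vdac1, at 633 TPM in replicate 1 and 650 TPM in replicate 2, and Vdac3, at 227 TPM in each, and by Park7 (DJ-1), at 355 TPM in replicate 1 and 377 TPM in replicate 2. Calcoco2 had no counts in either library, which allows up to 0.0815 CPM in replicate 1 and 0.0795 in replicate 2. Of 16 other cargo receptors and helpers, 4 were higher in replicate 1, 1 was higher in replicate 2 and 11 were not called (median 0.04), led by Hspb8 at 176 TPM in replicate 1 and 173 TPM in replicate 2, with the reticulum receptor Retreg1 and the co-chaperone Bag3 next. Of 38 fusion and lysosome genes, 3 were higher in replicate 1, 1 was higher in replicate 2 and 34 were not called (median -0.02). Psap, the precursor of the saposins, had 357 TPM in replicate 1 and 356 TPM in replicate 2, and the protease gene Ctsd and the membrane protein gene Lamp1 followed. The calls in these 4 lists depended on the scaling. With total counts, the other core and upstream genes had 1 higher and 11 lower in replicate 1, the other mitophagy genes 0 and 15, the other cargo receptors 0 and 8, and the fusion and lysosome genes 1 and 18. With the spike-ins the same lists had 24 higher and 1 lower, 16 and 0, 10 and 0, and 21 and 0. Over all 14101 genes, 35.6% were called in either direction with the spike-ins. The share over all genes with total counts was not computed.

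Regulators of autophagy genes formed the fifth list. Of 14 tested MiT-TFE and FoxO regulators, 7 were higher in replicate 1, none was higher in replicate 2 and 7 were not called. Their median log2 ratio was 0.22. Over all genes tested, 10.8% were higher in replicate 1 and 10.7% higher in replicate 2. With total-count scaling 6 were higher in replicate 1 and 2 higher in replicate 2, and with spike-in scaling 12 and 0. The spike-in scaling called 35.6% of all 14101 genes in either direction and shifted the log2 ratio of all genes by 0.15. For total counts the share over all genes was not computed. Foxo1, a transcription factor known to induce autophagy and atrophy genes in muscle, had 1412 counts in replicate 1 and 813 counts in replicate 2, a 1.93-fold difference (log2 ratio 0.95; adjusted p = 4e-50, exact binomial test). By level the list was led by Foxo4, at 58.8 TPM in replicate 1 and 58.9 TPM in replicate 2, by the folliculin gene Flcn and by Keap1, which binds p62 and the factor NRF2.

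Markers of fibre type and of other cells also differed between the libraries. For all genes tested, 10.8% were called higher in replicate 1 and 10.7% lower in replicate 1. All 10 slow-fibre markers were higher in replicate 1, with a summed level of 1797 TPM in replicate 1 and 1185 TPM in replicate 2. All 12 fast-fibre markers were lower in replicate 1, with 83438 TPM in replicate 1 and 90634 TPM in replicate 2, although 6 of the 12 were higher in replicate 1 with spike-in scaling. Of 8 pericyte and smooth muscle markers 7 were lower in replicate 1, with 104 TPM in replicate 1 and 138 TPM in replicate 2. Of 8 adipocyte markers 6 were lower in replicate 1, with 79.3 TPM in replicate 1 and 97.9 TPM in replicate 2, and of 8 endothelial markers 5 were lower and 1 higher, with 59.8 TPM in replicate 1 and 65.3 TPM in replicate 2. In the remaining lists the calls were 1 of 9 macrophage markers (higher), 1 higher and 2 lower of 8 fibroblast markers, and 1 of 5 satellite cell, 1 of 6 Schwann cell and 3 of 5 erythroid markers (all lower). The fibroblast calls became 5 lower with total counts and 4 higher with the spike-ins. With the spike-ins no satellite cell, erythroid or Schwann cell marker was called lower, and 1 erythroid and 1 Schwann cell marker were called higher. That scaling left 6 pericyte and smooth muscle, 3 adipocyte and 2 endothelial markers called lower. The macrophage calls were none with DESeq2 size factors, 1 lower with total counts and 2 higher with the spike-ins. Of 18 heat shock and immediate early genes 10 were higher in replicate 1 and 3 lower, with 1356 TPM in replicate 1 and 1043 TPM in replicate 2. The part of these differences in the ratios of Gabarapl1, Atg101, Tfeb, Foxo1 and the other called genes was not tested.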

How the data were processed

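Total RNA-seq libraries of 2 gastrocnemius muscles were analysed from the authors' deposited tables, built on mm10 with GENCODE M21 identifiers. The deposited gene tables hold expected counts, TPM and the posterior standard deviation of the count, another measure of assignment error, and the first transcript tables hold expected counts, TPM and the percent of a gene's TPM per transcript, under column names that RSEM writes, per the file headers. The second quantification is a deposited transcript table with estimated counts and TPM, under names that kallisto writes, per the file headers, and was summed per gene. Tool versions and the strand setting are not given in the sources used here. Expected counts were rounded to whole numbers. Entries that name no gene (spike-ins, phiX and entries named by a number only, which hold 0 counts) stayed out of library sizes.

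Counts were scaled by TMM in edgeR 4.0.16 (R 4.3.3) and compared by its exact binomial test over genes averaging 10 counts or more, with Benjamini-Hochberg adjustment at 0.05. Log2 ratios used a prior of 1 count. Intervals are 95% and cover counting error only. Data with counting noise only, and no variation between animals, were simulated at these depths over 13931 genes. The genes to be changed were drawn only from those averaging 100 counts or more. The test called 84% of genes set 1.5-fold higher and 84% of those set to 0.67 of their level. It called 100% of those set 2-fold higher, 94% of those set to 0.5 of their level, and 0.0863% of unchanged genes. These rates do not cover changes in genes with fewer counts or variation between animals. The posterior SD of the count was at most 0.66% of the count in the 38 genes. DESeq2 1.42.0 size factors, total counts, spike-in counts and other settings were alternatives. All 38 genes are named. Of each wider list, the 3 highest by mean TPM and any gene 1.5-fold apart at a mean of 100 or more counts are named, with Calcoco2 added after its values were seen. The genes and lists were chosen with earlier results of these data known. Promoters come from RefSeq (GRCm38.p6). Other sequences come from mm10. Age, strain and replicate were taken from the labels.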

Additional observations from a re-analysis of the deposited data

How the results depend on the processing

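The direction of small ratios depended on the scaling. The median log2 ratio of the 38 genes was 0.04 with TMM scaling, -0.075 with total counts (the sign turned) and 0.19 with the spike-ins. The number of genes higher in replicate 1 was 22, 6 with total counts and 34 with the spike-ins. The number called was 8 of the 38, and 0 with an assumed coefficient of variation of 0.1. With the spike-ins it was 25 of the 38, whereas 35.6% of all genes tested were called with that scaling. The number was within 1.5 times of 8 with DESeq2 size factors, with total counts, with no count filter and in the second quantification. With total counts the log2 ratios of Ulk2 (-0.029) and Bnip3 (-0.020) turned round, and with the spike-ins those of Sqstm1 (0.058) and Pink1 (0.10). By scaled counts, no gene was 1.5-fold apart under any alternative run. The rule was not run on TPM, where Atg4c was 1.71-fold higher in replicate 1. The median level of 19.1 TPM became 17.3 TPM in the second quantification and 44.0 TPM when rescaled over nuclear protein-coding genes, and was 18.01 to 20.2 TPM with either animal alone. The LC3 share of Atg8 TPM was 49.9%, 56.2% in the second quantification and 48.8 to 51.0% with either animal alone. With either animal alone, 38 genes reached 1 TPM, 6 had a coding share below 50%, and 26 to 28 had the same leading transcript in both quantifications. No paired analysis was possible because the study has a single group.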
